A study of Mus musculus with 48 samples.

Results

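The spread of liver gene expression between individual mice was compared after 2 days and after 4 weeks of feeding. The quantity described is the residual variance of each gene, that is, how far mice of the same diet and duration lay from their own group mean, and not the difference between group means. All mice were male C57BL/6J animals, housed singly and first made obese on a high-fat diet with a low ratio of protein to carbohydrate (L-P/C-HF). They then stayed on L-P/C-HF or were moved to a high-fat diet with a high ratio of protein to carbohydrate (H-P/C-HF). Livers came from 12 L-P/C-HF mice and 11 H-P/C-HF mice at 2-d, and from 12 mice on either diet at 4-wk. Each mouse gave 1 Affymetrix array of the mouse genome, and 47 of 48 arrays were used. Array B25 (H-P/C-HF, 2-d) was left out because its values stood apart from its group. Obesity was induced by diet in wild-type animals with no transgene, and the animals had been picked for a poor glucose tolerance test, so they do not stand for unselected mice. The 4-wk mice had a further glucose tolerance test during the feeding and were killed on 2 consecutive days. The kill day of each mouse was not used here, and its part in any result was not tested.

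Genes differ widely in how much they vary between genetically identical animals. In liver the classes known for such variation are acute phase proteins, which hepatocytes secrete when cytokines reach them, immediate early genes, which answer a stimulus within minutes and are soon silent again, clock and glucocorticoid-responsive genes, which follow the time of day, and genes of sterol synthesis, which follow feeding. Transcripts of resident macrophages (Kupffer cells), lymphocytes and other cells add variation of their own, because a piece of liver holds varying numbers of them. In bulk liver, fewer cells of a type and less RNA per cell cannot be told apart.

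Levels are log2 values normalized with the robust multichip average (RMA), so that 1 unit is a doubling, and the SD of a gene at a given time is pooled over both diets (21 residual degrees of freedom at 2-d and 22 at 4-wk). The mean correlation of an array with the other arrays of its group lay between 0.976 and 0.992. The difference between the 3' and 5' probe sets of the Gapdh and beta-actin controls, which grows as RNA is degraded or copied short, ran from 0.29 to 0.90 (median 0.44) at 2-d and from 0.135 to 0.51 (median 0.243) at 4-wk. The highest value was that of A01, an L-P/C-HF 2-d mouse. Within each duration this signal was set against the typical deviation of a mouse and against 6 gene summaries, and none of the 14 relations passed Benjamini-Hochberg adjustment. The lowest adjusted p was 0.305, for the acute phase list at 2-d (r = -0.48, rho = -0.52, permutation p = 0.0218). Without the 2 mice farthest from the median signal, r was -0.48. The signal was mostly higher at 2-d. Relations within a duration cannot separate that difference from a difference in spread between the durations.

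Over all 45037 probe sets the spread was nearly the same at both durations. The median SD between mice was 0.187 log2 units at 2-d and 0.178 at 4-wk, and the median log2 ratio of the variances (4-wk over 2-d) was -0.14, with 41.5% of probe sets more variable at 4-wk. By group the median SD was 0.200 in L-P/C-HF 2-d mice, 0.179 in L-P/C-HF 4-wk mice, 0.166 in H-P/C-HF 2-d mice and 0.173 in H-P/C-HF 4-wk mice. A typical mouse deviated from its group mean by 0.130 ± 0.0283 (SD, n = 23; range 0.083 to 0.179) at 2-d and by 0.124 ± 0.0331 (n = 24; range 0.0862 to 0.226) at 4-wk, where each mouse was summarised by its median absolute deviation. The difference of -0.00531, averaged over the diets, was within the spread between mice (two-sided permutation test with time labels permuted within diet, p = 0.553). The diets did not differ detectably in that change either (difference 0.0165, p = 0.354).

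Single probe sets shifted by more than this median. A variance more than 4-fold larger at 2-d was found for 405 probe sets (0.90%), and more than 4-fold larger at 4-wk for 94 (0.21%). How many such ratios arise by chance was not tested. The absolute deviations were then tested in a linear model across all probe sets (limma, Benjamini-Hochberg adjustment), and 11 probe sets passed an adjusted p of 0.05. Of these, 7 were more variable at 4-wk (0.0155% of those tested) and 4 were less variable at 4-wk (0.00888%). At an unadjusted p under 0.05 there were 825 wider and 1816 narrower probe sets at 4-wk, counts that include those expected by chance. With 1 probe set per gene, these were 291 wider genes (1.6% of 18193) and 638 narrower genes (3.51%). Most genes that ranked high in spread did so at both durations: the SDs of 11920 genes of at least median level had a rank correlation of 0.71 between the durations (across genes, which are not independent replicates), and 111 of the 200 most variable genes were shared (55.5% of each list).

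**Figure D1:**
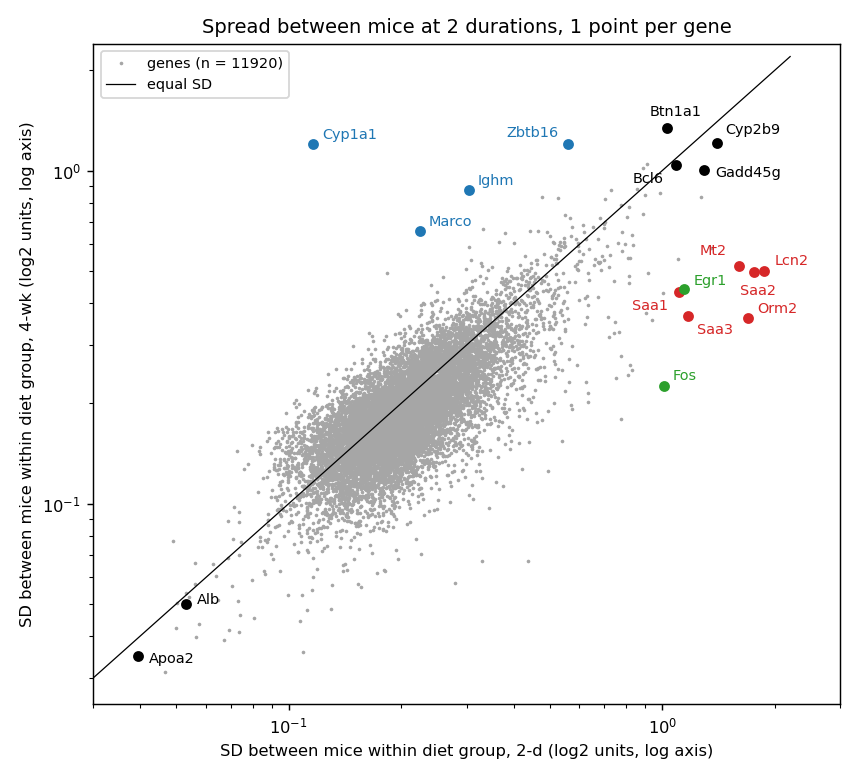
SD between mice within diet group (log2 units, both axes logarithmic) at 2-d on the horizontal axis and at 4-wk on the vertical axis, 1 point for each of 11920 genes of at least median level, with the line of equal SD. The acute phase and metallothionein genes marked in red (Lcn2, Saa1, Saa2, Saa3, Orm2, Mt2) and Fos and Egr1 (green) lie below the line, with Lcn2 at 1.87 and 0.50 and Fos at 1.01 and 0.23, Zbtb16, Marco, Ighm and Cyp1a1 (blue) lie above it, and Btn1a1, Cyp2b9, Bcl6, Gadd45g, Alb and Apoa2 (black) lie near it.

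The 3 genes with the largest spread at 2-d, Lcn2, Saa2 and Orm2, encode secreted proteins of the acute phase response. Lcn2, which encodes the iron-siderophore binding protein lipocalin 2, had an SD of 1.87 at 2-d and of 0.50 at 4-wk. In L-P/C-HF 2-d mice its level ran from 6.63 in A06 over a median of 7.96 to 13.62 in A09. In H-P/C-HF 2-d mice it ran from 7.47 over 7.97 to 12.08 in B29. At 4-wk the ranges were 6.92 to 8.73 (median 7.68) on L-P/C-HF and 6.82 to 7.89 (median 7.36) on H-P/C-HF. A few 2-d mice on either diet stood high, led by A09 and A08 on L-P/C-HF and B29 on H-P/C-HF. On L-P/C-HF the medians were close and the 4-wk range lay inside the 2-d range. On H-P/C-HF all 4-wk mice lay below the 2-d median of 7.97, so level and spread differed together there. How far the spread of Lcn2 followed its level was not tested. Lcn2 was called less variable at 4-wk: its mean absolute deviation was 1.48 at 2-d and 0.40 at 4-wk, a difference of -1.08 ± 0.205 (SE; limma, adjusted p = 0.0149). The call was lost when A08, A09, A10 or B31 was left out singly (adjusted p = 0.156, 0.162, 0.125 and 0.0506), with the SD at 2-d still 1.58 without A09.

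The serum amyloid A genes and orosomucoid followed the same mice. Saa2, an acute phase apolipoprotein, ran from 7.98 (median 8.83) to 14.81 on L-P/C-HF at 2-d, and from 8.52 (median 9.12) to 12.63 on H-P/C-HF at 2-d. At 4-wk it ran from 7.56 (median 8.51) to 9.38 and from 7.43 (median 8.07) to 8.83. Its SD was 1.77 at 2-d and 0.50 at 4-wk, with an adjusted p of 0.0743 that missed the threshold. Orm2, a plasma carrier protein of the lipocalin family, had SDs of 1.70 and 0.36 (adjusted p = 0.188). Saa1 had SDs of 1.11 and 0.43 (adjusted p = 0.135). On H-P/C-HF all 2-d mice (lowest 10.71) lay above all 4-wk mice (highest 10.56) for Saa1. For Saa2 all H-P/C-HF 4-wk mice lay below the 2-d median of 9.12. Level and spread thus differed together there, while on L-P/C-HF the durations overlapped for both genes. How far the spread of these genes followed their level was not tested. Saa3, a serum amyloid A also made by macrophages, had SDs of 1.17 and 0.37, and A09 alone (14.05, against 10.64 in the next mouse, A08) held 65.8% of its squared deviations at 2-d.

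The promoters of the acute phase genes with the largest SD are shown because these genes moved together between mice. They were taken from RefSeq (build GRCm38.p6) and run from 250 bases before to 50 bases after the start of each gene, 5′ to 3′ on the strand of the gene, at chr7:46751583-46751882 (plus strand), chr4:63362199-63362498 (plus strand) and chr2:32387690-32387989 (minus strand). Capitals mark the letters TTGCNNAA, a form of the site of C/EBP factors, searched on both strands.
Saa2: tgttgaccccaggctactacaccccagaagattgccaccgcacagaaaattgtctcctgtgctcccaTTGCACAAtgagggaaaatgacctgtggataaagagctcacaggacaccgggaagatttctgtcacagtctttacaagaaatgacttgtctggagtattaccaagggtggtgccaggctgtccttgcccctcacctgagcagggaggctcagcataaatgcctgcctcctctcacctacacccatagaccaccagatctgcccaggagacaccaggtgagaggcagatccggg
Orm2: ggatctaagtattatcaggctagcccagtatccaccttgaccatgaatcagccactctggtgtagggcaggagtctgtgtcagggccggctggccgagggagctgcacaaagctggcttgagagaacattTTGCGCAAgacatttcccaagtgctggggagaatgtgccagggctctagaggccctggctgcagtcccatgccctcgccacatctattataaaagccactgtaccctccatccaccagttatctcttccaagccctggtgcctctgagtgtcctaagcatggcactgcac
Lcn2: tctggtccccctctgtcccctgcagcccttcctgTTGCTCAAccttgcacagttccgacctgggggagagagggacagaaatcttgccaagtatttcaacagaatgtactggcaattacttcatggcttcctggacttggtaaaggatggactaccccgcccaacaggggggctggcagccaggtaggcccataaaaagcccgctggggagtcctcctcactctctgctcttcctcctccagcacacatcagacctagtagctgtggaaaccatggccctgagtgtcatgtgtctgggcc
Each of the 3 windows held this pattern at 1 place (in Orm2 it reads the same on both strands), and so did the window of Saa1, whereas 10.8% of 32851 promoters of the same length held it. The letters TTCNNNGAA of STAT3 (in 8.3% of promoters) and the NF-kB motif (8.46%) were not in the windows of these 4 genes. Such matches are a description of sequence and were not tested as binding sites.

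The metallothioneins, small zinc-binding proteins induced by metals, glucocorticoids and cytokines, varied in the same way. Mt2 ran from 8.59 (median 9.80) to 13.96 in A09 on L-P/C-HF and from 8.39 (median 10.87) to 13.44 on H-P/C-HF at 2-d. At 4-wk it stayed between 8.74 and 10.51 (median 9.40) and between 8.96 and 10.67 (median 9.39). The 4-wk levels lay inside the range of the 2-d levels on both diets. On H-P/C-HF, however, all 4-wk mice lay below the 2-d median, so level and spread differed together there. How far the spread of Mt2 followed its level was not tested. The SD of Mt2 was 1.61 at 2-d and 0.52 at 4-wk (adjusted p = 0.0548), and that of Mt1 was 1.35 and 0.59 (adjusted p = 0.498). A dimmer probe set of Mt1 (SDs of 0.90 and 0.24) was called within L-P/C-HF mice. The promoters of both genes are shown for their metal response elements, of which capitals mark each copy of TGCGCNC or TGCACNC on either strand, at chr8:94178839-94179138 and chr8:94172368-94172667 (plus strand, RefSeq, GRCm38.p6).
Mt1: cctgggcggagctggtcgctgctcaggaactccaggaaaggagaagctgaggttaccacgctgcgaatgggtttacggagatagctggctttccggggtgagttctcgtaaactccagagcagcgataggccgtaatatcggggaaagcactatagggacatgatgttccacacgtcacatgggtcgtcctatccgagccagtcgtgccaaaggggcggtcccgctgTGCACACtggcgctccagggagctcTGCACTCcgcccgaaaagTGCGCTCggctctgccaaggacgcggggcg
Mt2: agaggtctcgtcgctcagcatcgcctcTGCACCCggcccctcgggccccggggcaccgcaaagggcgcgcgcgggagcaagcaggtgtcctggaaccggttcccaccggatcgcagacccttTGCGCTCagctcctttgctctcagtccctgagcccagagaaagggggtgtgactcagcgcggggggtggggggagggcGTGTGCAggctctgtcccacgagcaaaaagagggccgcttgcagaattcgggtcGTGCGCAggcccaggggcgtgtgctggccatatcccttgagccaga
The Mt1 window held the pattern at 3 places and the Mt2 window at 4. Either form was found at least once in 25.7% of promoters (TGCGCNC in 15.4% and TGCACNC in 12.6%), and at 4 or more places in 0.517%.

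Of the 28 measured genes of the acute phase list, 26 had the larger variance at 2-d, as did 10743 of all 18193 genes. Their median SD went from 0.376 to 0.179, and their median log2 variance ratio was -2.57, against -0.14 over all genes. At an unadjusted p under 0.05, 17 were narrower and 1 was wider at 4-wk, beside 3.51% and 1.6% of all genes, and Lcn2 alone passed the adjusted test. Without A01, A09 and A24 the median ratio was -2.06. A09 carried 32.02% of the squared deviations of the list at 2-d, A08 12.31% and B29 12.03%. At the other end of the same range, A06 had the lowest mean deviation of the list, followed by A01.

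**Figure D2:**
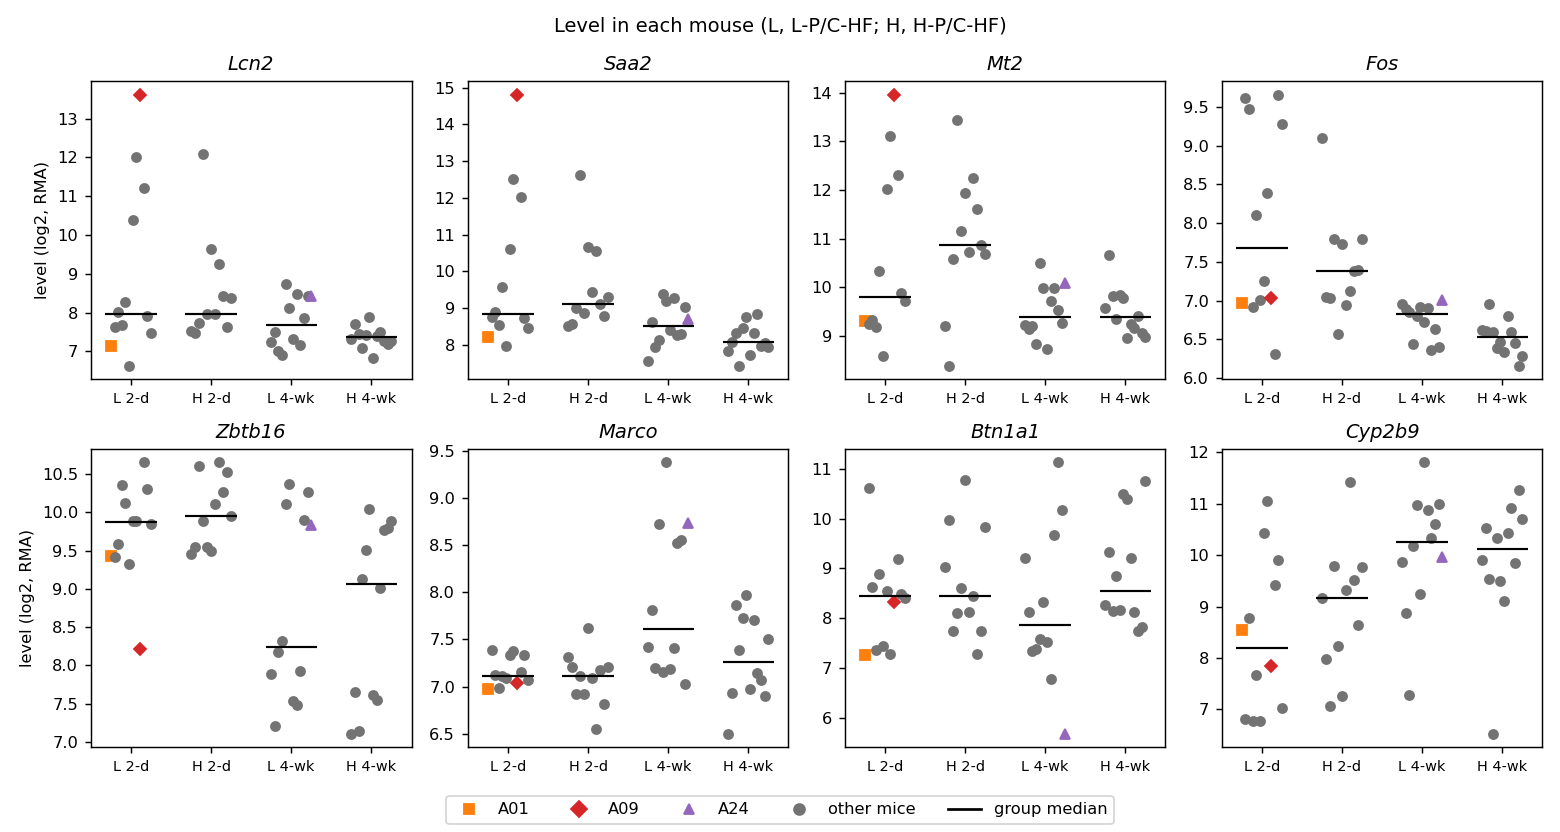
Level (log2, RMA) of 8 genes in each mouse by group, with A01, A09 and A24 marked and a bar at each group median. Single 2-d mice stand high for Lcn2, Saa2 and Mt2, several stand high for Fos, the 4-wk mice form a higher and a lower set for Zbtb16, and Btn1a1 and Cyp2b9 spread over several units in every group.

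Fos also varied more at 2-d, with other mice at the top. This gene, a subunit of the AP-1 transcription factor, ran from 6.31 in A10 over a median of 7.68 to 9.66 in A11 on L-P/C-HF, and from 6.57 over 7.38 to 9.10 in B26 on H-P/C-HF. At 4-wk its levels were 6.36 to 7.01 (median 6.83) and 6.16 to 6.96 (median 6.54), close to the array medians of 6.73 to 6.91. The spread at 2-d came from several mice, with A02 and A03 near the level of A11, and the lowest 2-d mice overlapped the 4-wk groups. The SD was 1.01 at 2-d and 0.23 at 4-wk, and the mean absolute deviation differed by -0.63 ± 0.0985 (SE, limma, adjusted p = 0.000556). Without A09 the SD at 2-d was 1.01. The highest 2-d levels were not reached at 4-wk, so level and spread differed together, and how far the spread followed the level was not tested. Egr1, a zinc finger factor induced with Fos, had SDs of 1.15 and 0.44 (adjusted p = 0.522).

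Btg2 and H3f3b were the other genes called less variable at 4-wk. Btg2 encodes an antiproliferative protein and is an early p53 target. Its called probe set had SDs of 0.51 and 0.18 (adjusted p = 0.000813), with levels of 7.87 to 9.54 (median 8.71) and 8.10 to 9.29 (median 8.68) at 2-d, and of 7.50 to 8.24 (median 7.73) and 7.34 to 7.85 (median 7.51) at 4-wk. Its other probe set had SDs of 0.43 and 0.19 in the same direction and missed the threshold (adjusted p = 0.569). H3f3b, which encodes the replication-independent histone H3.3, had SDs of 0.44 and 0.15 (adjusted p = 0.00236). All 2-d mice lay above all 4-wk mice for H3f3b, with 6.86 as the lowest 2-d level and 6.58 as the highest 4-wk level, so its level and its spread differed together.

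The promoters of Fos (chr12:85473640-85473939, plus strand) and Btg2 (chr1:134079106-134079405, minus strand; RefSeq, GRCm38.p6) are shown because the levels of these genes went together between the 2-d mice (r = 0.85 over 23 mice). Capitals mark TGACG, the core of cyclic AMP response elements, searched on both strands and found in 20.8% of promoters.
Fos: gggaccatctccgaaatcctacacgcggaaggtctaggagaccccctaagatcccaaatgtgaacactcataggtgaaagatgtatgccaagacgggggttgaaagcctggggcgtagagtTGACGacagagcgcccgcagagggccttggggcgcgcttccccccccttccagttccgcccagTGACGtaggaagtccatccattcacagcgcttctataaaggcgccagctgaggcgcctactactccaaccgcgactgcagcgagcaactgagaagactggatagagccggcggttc
Btg2: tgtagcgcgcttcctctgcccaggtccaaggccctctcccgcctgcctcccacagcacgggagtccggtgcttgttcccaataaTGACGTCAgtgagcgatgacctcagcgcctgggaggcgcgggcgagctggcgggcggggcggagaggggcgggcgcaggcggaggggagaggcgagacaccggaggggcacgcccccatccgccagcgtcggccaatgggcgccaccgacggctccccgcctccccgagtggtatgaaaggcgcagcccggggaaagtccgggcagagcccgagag
Fos held it at 2 separate places, and Btg2 held it on both strands in overlap, which spells the palindrome TGACGTCA. Of the 20 genes of the immediate early list, 16 had the larger variance at 2-d, as did 10743 of all 18193 genes, and the median SD went from 0.395 to 0.258. At an unadjusted p under 0.05, 7 were narrower and 0 were wider at 4-wk by limma, beside 3.51% and 1.6% of all genes, and Fos passed the adjusted test. The median log2 ratio was -0.53, and -0.66 without A01, A09 and A24. B26, A11 and A02 had the highest mean deviation of the list, and A09 held 17.1% of its squared deviations. The Socs3 gene, a feedback inhibitor of cytokine signalling, belonged to this list and stayed variable at both times (SDs 0.99 and 0.86).

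The gain in spread at 4-wk with the lowest p was that of Zbtb16, a glucocorticoid-inducible BTB zinc finger factor also known as PLZF. Its brightest probe set had an SD of 0.56 at 2-d and 1.199 at 4-wk, and its mean absolute deviation rose by 0.69 ± 0.102 (SE, limma, adjusted p = 0.000231). Another had SDs of 0.62 and 1.69 (adjusted p = 0.000196), and the third moved the same way without passing (0.32 and 0.51, adjusted p = 0.445). A pair of called probe sets that carry no single gene symbol (SDs of 0.68 and 1.69, and of 0.47 and 0.83) followed Zbtb16 at 2-d with r of 0.93 and 0.94 over 23 mice. The call of the latter was lost without A23 (adjusted p = 0.0544) or without A24 (0.0538). By an F test of the variance ratio, the brightest Zbtb16 probe set did not pass (adjusted p = 0.124), nor did that latter probe set (0.386). The other called Zbtb16 probe set (0.00988) and the other one without a single symbol (0.0279) did.

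At 2-d the levels of Zbtb16 ran from 8.21 in A09 over 9.87 to 10.65 on L-P/C-HF, and from 9.45 over 9.95 to 10.65 on H-P/C-HF. At 4-wk they ran from 7.21 over 8.25 to 10.37 in A18 on L-P/C-HF, and from 7.11 over 9.07 to 10.04 in B42 on H-P/C-HF. The 4-wk levels fell into a higher and a lower set. No 4-wk mouse lay between 8.32 and 9.01, a gap of 0.69 where the next widest gap was 0.38. On L-P/C-HF 5 of 12 mice lay above it, and on H-P/C-HF 7 of 12. Of the 23 mice at 2-d, 22 lay above the gap and A09 lay below it. This gap was noticed in the data and was not tested.

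Because of that gap no correlation of Zbtb16 with a single other gene over all 4-wk mice is given. Genes among those most like it were followed within each set of 12 mice, as a description with no test. With Ciart, a repressor of the circadian clock, r was 0.89 in the higher set and 0.70 in the lower set, and 0.81 over the 23 mice at 2-d. With Usp2, a ubiquitin-specific protease under clock control, it was 0.88 and 0.46, and 0.88 at 2-d. With Fkbp5, a cochaperone of the glucocorticoid receptor, it was 0.79 and 0.23, and 0.53 at 2-d. With Lpin1, a phosphatidate phosphatase, it was 0.65 and 0.53. Of the other genes followed, Rhobtb1 had r of 0.78 and 0.35, Arhgef26 0.49 and 0.50, and Tmc7 0.34 and 0.68. Il1r1 had 0.67 and 0.56, and St3gal5 0.53 and 0.63. Fkbp5 itself had similar SDs at both times (0.54 and 0.59), as did Ciart (0.43 and 0.50). Over the 20 glucocorticoid targets on the list the median log2 ratio of variances was -0.01, with 10 of the genes more variable at each time.

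Among macrophage genes, Marco was called more variable at 4-wk. This scavenger receptor of macrophages had an SD of 0.22 at 2-d and 0.66 at 4-wk, and its mean absolute deviation rose by 0.40 ± 0.0613 (SE, limma, adjusted p = 0.000412). It stayed within 6.97 to 7.39 (median 7.12) and 6.55 to 7.62 (median 7.11) at 2-d, and ran from 7.03 (median 7.62) to 9.38 in A18 and from 6.50 (median 7.27) to 7.97 in B42 at 4-wk. The highest mice were on L-P/C-HF, where A24, A16, A22 and A21 followed A18. A13, A14 and A20 also lay above the highest L-P/C-HF 2-d level of 7.39. On H-P/C-HF the durations overlapped, with B39, B41, B42 and B44 above the 2-d mice. The 2-d levels lay close to the array medians of 6.73 to 6.91. Level and spread thus differed together on L-P/C-HF, and how far the spread of Marco followed its level was not tested. The other probe set of Marco had SDs of 0.54 and 0.97 (adjusted p = 0.135). H2-Ab1, a chain of the MHC class II dimer, had SDs of 0.30 and 0.59 (adjusted p = 0.522), with 4-wk levels of 8.44 to 10.33 on L-P/C-HF and 8.53 to 10.54 on H-P/C-HF.

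Of the 22 Kupffer cell and macrophage markers, 20 had the larger variance at 4-wk, as did 40.95% of all genes. Their median SD went from 0.314 to 0.422 (median log2 ratio 0.58), with 5 wider and 0 narrower at an unadjusted p under 0.05 by limma, beside 1.6% and 3.51% of all genes, and Marco passed the adjusted test. The ratio was 0.62 without A01, A09 and A24, and A24 held 3.23% of the squared deviations at 4-wk. The widest mouse was B43 with 22.96%, which lay lowest, followed by A18, which lay highest. Other members had large SDs at both times, as C1qb, a subunit of the complement component that binds antibody (0.54 and 0.59). The level of C1qb differed with duration too, with medians of 8.62 and 8.47 at 2-d and of 10.47 and 10.08 at 4-wk.

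Of the 22 MHC class II and lymphocyte markers, 20 likewise had the larger variance at 4-wk (median SD 0.207 and 0.232, median log2 ratio 0.64). At an unadjusted p under 0.05 by limma, 5 were wider and 0 narrower, again beside 1.6% and 3.51% of all genes. The ratio was 0.54 without the 3 arrays, although A24 held 30.3% of the squared deviations of the list. A24 stood alone in the antibody genes. Ighm, the constant region of the IgM heavy chain, was at 12.51 in A24 and at most 9.83 in any other mouse, so that A24 held 73.0% of its squared deviations at 4-wk (SDs 0.30 and 0.87). Ighm did not pass the adjusted test by limma (adjusted p = 0.878). Another of its probe sets had SDs of 0.31 and 0.83. The remaining ones changed less (0.185 and 0.227 for the second brightest), some of them in the other direction (0.376 and 0.264 for a dim one). Jchain, which joins IgM and IgA units, was at 9.45 in A24 and at most 7.17 elsewhere (79.4%; SDs 0.22 and 0.72).

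Some genes owed their spread at 4-wk to 1 mouse, which was rare among the 200 most variable genes (2 genes with more than 50% of the squared deviations in 1 mouse, against 33 at 2-d). Cyp1a1, the dioxin-inducible cytochrome P450, had SDs of 0.12 and 1.198, and B44 held 90.3% of its squared deviations, at 13.42 against 8.03 in the next mouse. Acta1 and Tnnc2, which encode skeletal muscle actin and a troponin C, rested on A15, which held 84.1% and 82.5%. A15 was at 9.44 for Acta1, with no other mouse above 6.90, and carried 63.0% of the squared deviations of the 14 skeletal muscle markers. Cyp1a1, Acta1 and Tnnc2 did not pass the adjusted test (adjusted p = 0.822, 0.850 and 0.902). Clec14a, an endothelial C-type lectin, and Spsb4, a SOCS box protein, named here because they were called, completed the list of calls (adjusted p = 0.0218 each). The Clec14a call came from a dim probe set with a mean level of 4.33 (SDs 0.16 and 0.48), and Spsb4 had SDs of 0.16 and 0.38, while the brighter probe sets of both genes were not called (adjusted p = 0.850 and 0.988). The Clec14a call was lost without A14, A18, A20, B40, B43 or B46 (adjusted p from 0.0501 to 0.0750), and that of Spsb4 without A24, B40, B43 or B45 (from 0.0515 to 0.0543).

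A further set of genes varied strongly at both durations. Cyp2b9, a steroid hydroxylase of the CAR-regulated Cyp2b family, had SDs of 1.40 and 1.21. Its level ran from 6.77 (median 8.20) to 11.05 and from 7.07 (median 9.16) to 11.43 at 2-d, and from 7.29 (median 10.26) to 11.80 and from 6.53 (median 10.13) to 11.27 at 4-wk. All groups overlapped, with A15 and B40 as low 4-wk mice. Btn1a1, a butyrophilin of milk fat membranes, had SDs of 1.03 and 1.34, with 10.62 in A02 and 10.78 in B31 as the highest 2-d levels and 11.13 in A22 and 10.75 in B48 as the highest at 4-wk. Medians lay between 7.86 and 8.56 in the 4 groups. Its lowest value was 5.68, in A24.

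Bcl6, a repressor that follows growth hormone and fasting in liver, had SDs of 1.09 and 1.04. Gadd45g, a growth arrest and DNA damage gene, had SDs of 1.296 and 1.002. Fabp5, a fatty acid binding protein, had SDs of 1.27 and 0.84. For none of these genes did the difference between durations pass the adjusted test. At the other end, and chosen after their values were seen, were abundant secreted proteins, with SDs of 0.039 at 2-d and 0.035 at 4-wk for Apoa2, an apolipoprotein of high density lipoprotein, and 0.053 and 0.050 for Alb, serum albumin. Their mean levels were 14.52 and 14.59, where the highest value on any array was 14.81, and the part of that ceiling in the small SDs was not tested. The 16 hepatocyte identity genes were also steady, with median SDs of 0.067 and 0.056.

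Which genes varied together was followed in 25 pairs of genes of like function, as correlations of deviations from the group mean over the 23 mice at 2-d and the 24 mice at 4-wk. Of the 50 correlations, 32 passed an adjusted p of 0.05 (permutation test of Pearson's r, Benjamini-Hochberg over the 50), 16 at each duration, and 12 pairs passed at both. None of those that passed was negative. Saa1 and Saa2 had r = 0.97 at 2-d (rho = 0.93) and 0.87 at 4-wk (rho = 0.88). Saa1 and Orm2 had r = 0.93 (rho = 0.89) and 0.77 (rho = 0.84). Mt1 and Mt2 had r = 0.97 (rho = 0.98) and 0.87 (rho = 0.89). For each of these the permutation p was 1e-05, the smallest that the permutations can give, and the adjusted p was 2.8e-05. Without the 2 mice farthest from the median of the first gene, r lay between 0.79 and 0.98 in all of them. The members of these 3 pairs thus went together at 4-wk as well, over a narrower range. Across the pairs, Saa2 and Mt2 had r = 0.92 at 2-d and 0.43 at 4-wk, and Saa2 and Fgl1, a fibrinogen-like secreted protein, had 0.92 and -0.05, as a description with no test.

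Other pairs were tied at both durations. The complement subunits C1qa and C1qb had r = 0.94 (rho = 0.87) and 0.97 (rho = 0.89). H2-Aa, an MHC class II chain, and Cd74, its invariant chain, had r = 0.85 (rho = 0.80) and 0.98 (rho = 0.99). Sqle and Idi1, enzymes of sterol synthesis, had r = 0.89 (rho = 0.93) and 0.87 (rho = 0.88). Clec4f and Vsig4, both restricted to Kupffer cells in liver, had r = 0.82 (rho = 0.83) and 0.90 (rho = 0.87). Hspa5 and Dnajb11, chaperones of the endoplasmic reticulum, had r = 0.94 (rho = 0.75) and 0.83 (rho = 0.82). All these had a permutation p of 1e-05 for r. Genes of 1 cell type and of 1 pathway share their source, and probe sets of near-identical genes such as Saa1 and Saa2 can share RNA, so these values are not evidence on independent genes.

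Some pairs passed the test at 1 duration only. Fos and Egr1 had r = 0.85 at 2-d (rho = 0.80, adjusted p = 2.8e-05) and -0.04 at 4-wk (rho = -0.07, adjusted p = 0.872). At 4-wk Fos lay between 6.16 and 7.01, close to the array medians, with an SD of 0.23. The part of this narrow range in the low r was not tested. Fasn, the fatty acid synthase, and Scd1, the stearoyl-CoA desaturase, had r = 0.67 (rho = 0.56, adjusted p = 0.00102) and 0.14 (rho = 0.15, adjusted p = 0.503). In the other direction, Hspa1b and Dnajb1, cytosolic heat shock genes, had r = 0.20 (rho = 0.16, adjusted p = 0.465) at 2-d and 0.69 (rho = 0.67, adjusted p = 0.00075) at 4-wk. The difference of r between durations was not tested.

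Some of these relations changed when 2 mice were left out. Fasn and Sqle, a sterol gene, had r = 0.03 at 2-d (rho = 0.51, permutation p = 0.882 for r). Without A09 and A12 r was 0.61 (permutation p = 0.00326), and A09 was the lowest mouse of its group for Fasn (10.19) and the highest for Sqle (11.40). Per1 and Dbp, both clock genes, had r = 0.64 at 2-d, and 0.15 without A09 and B27, so that relation rested on those mice. Without A01 and A09 its r was 0.12. Cyp7a1 and Cyp8b1, enzymes of bile acid synthesis, went from r = 0.48 to 0.25 without A09 and B27, but had 0.42 without A01 and A09. Hmgcs1 and Insig1, of the sterol pathway, went from 0.58 to 0.39 without A09 and B31, but had 0.53 without A01 and A09. At 4-wk Ckm and Acta1, muscle genes, had r = 0.89, and 0.59 without A15 and A20.

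Over whole lists, the mean correlation between members was far above the mean of 0.036 at 2-d and 0.034 at 4-wk over all genes in many of the 40 lists, which was not tested. It was high at both durations for proteasome subunits (0.66 and 0.74), cytosolic ribosomal proteins (0.62 and 0.60), cholesterol biosynthesis (0.60 and 0.59), Kupffer cell markers (0.57 and 0.73) and oxidative phosphorylation subunits (0.49 and 0.55). The acute phase list had 0.64 at 2-d and 0.14 at 4-wk, and 0.53 at 2-d without A01 and A09. The immediate early list had only 0.18 and 0.10, so that Fos, Egr1 and Btg2 did not speak for all of its members.

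**Figure D3:**
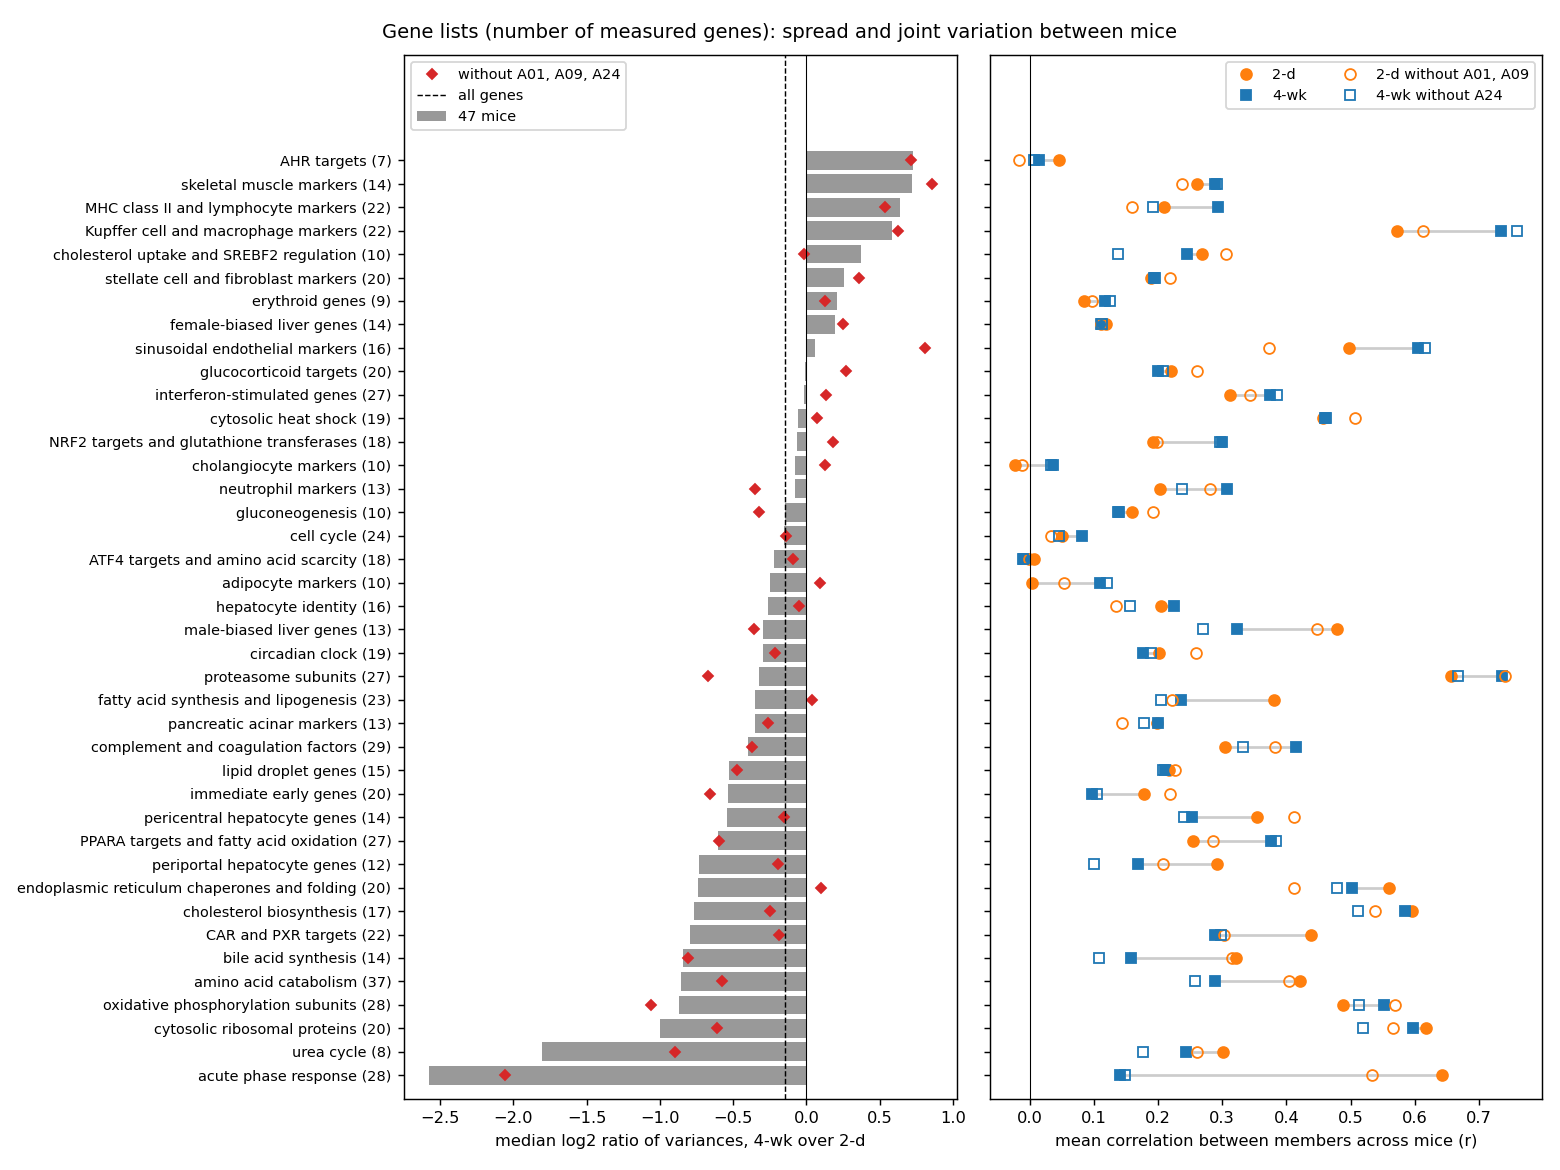
For 40 gene lists, with the number of measured genes, the left panel gives the median log2 ratio of variances (4-wk over 2-d) with all 47 mice (bars) and without A01, A09 and A24 (diamonds), and the right panel the mean correlation between members at 2-d (circles) and 4-wk (squares), with open symbols for values without those arrays. The acute phase response has the lowest ratio, at -2.57, and the largest drop of the mean correlation from 2-d to 4-wk (0.64 to 0.14). Macrophage (0.58) and MHC class II (0.64) lists lie right of 0, as do several others, of which AHR targets (0.73) and skeletal muscle markers (0.72) lie farthest right.

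The 200 most variable genes at each duration were also grouped by their correlations, without reference to function, into sets of 5 or more genes (average linkage at a mean r of 0.6). These sets were chosen from the data and are described only. At 2-d the largest held 42 genes led by Prg4, Cyb561, Gas6 and Saa3 (mean r = 0.70). A09 held 66.6% of the squared mean deviation of the set, and the mean r was 0.42 without A01 and A09 and 0.25 in the 4-wk mice. Next was a set of 24 genes led by Ces1f, Hectd2os, Ces1d and Rgs16 in which A09 lay lowest (75.1%; mean r 0.71, and 0.35 without A01 and A09). Most of what these sets hold is the distance of A09 from the other mice.

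Other sets kept most of their mean r without A01 and A09 and at the other duration. A set of 15 genes led by Rc3h2, Tmem59, Syp and Sox4, which also held Abhd5, a lipase activator of lipid droplets, had a mean r of 0.83 at 2-d and 0.84 in the 4-wk mice. A set of 11 led by Btn1a1, Mbp and Kcnd2 had 0.84 at both. No common function of these genes is known from the lists used here. The set of 9 with Foxq1, Hhex, Cish, Myc, Phlda1 and Gadd45g, which includes genes that respond to growth hormone and growth factors, had 0.79 and 0.71. The set of 8 with Cyp51, Sqle, Dhcr7, Msmo1 and Idi1 of sterol synthesis had 0.76 and 0.64, and 0.70 at 2-d without A01 and A09, where A09 was its highest mouse and held 40.4% of the squared mean deviation.

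At 4-wk a set of 19 genes was made of macrophage and antigen presentation genes (Tyrobp, C1qc, Cyba, Cd5l, C1qa, Vsig4, C1qb, Cd74), with a mean r of 0.81, and of 0.56 in the 2-d mice. A18, B42 and A14 lay highest and B43, A13 and A19 lowest. Another set of 9 held Ciart, St3gal5, Lpin1, Zbtb16, Fkbp5, Rhobtb1, Arhgef26 and Lipg (0.79 and 0.60), a mean that spans the gap in Zbtb16, with A23, A17 and A18 highest and A13, A14 and B44 lowest. A set of 8 held Tsc22d3, a glucocorticoid-induced leucine zipper, with Cebpd, Noct and Igfbp1 (0.74 and 0.54).

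The arrays A01, A09 and A24 carried unequal parts of all this. A09 held 11.1% of the squared deviations of the 2-d mice over all probe sets, A06 7.53% and A01 7.23%, and A24 held 10.7% of those of the 4-wk mice, ahead of B47 (7.64%) and B40 (7.27%). A09 was the farthest mouse in 3063 of 18193 genes (16.8%) at 2-d, and in 101 of the 200 most variable genes (50.5%). More than 50% of the squared deviations came from 1 mouse in 411 genes at 2-d, and in 299 of these the mouse was A09, whereas it was A01 in 11. A24 was the farthest mouse in 4059 genes (22.3%) at 4-wk, but in only 25 of the 200 most variable genes (12.5%). More than 50% from 1 mouse occurred in 127 genes at 4-wk, 59 of them in A24. A09 thus led a larger share of the 200 genes than of all genes, and A24 a smaller share. A24 still led more of the 200 at 4-wk than any other mouse. The 200 genes were ranked by SDs that include these mice, so a mouse far off in a gene helps to bring it into that set. These shares therefore cannot show whether either mouse stood apart mainly in genes that vary much or little among the other mice.

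**Figure D4:**
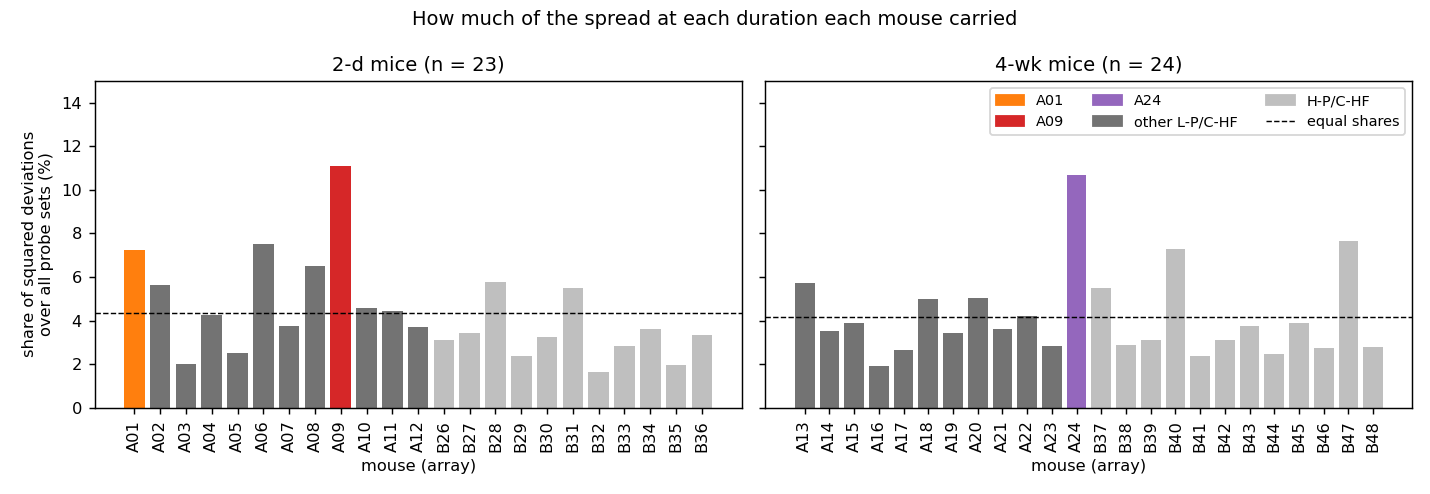
Share (%) of the squared deviations from the group mean, over all probe sets, held by each mouse at 2-d (left, 23 mice) and 4-wk (right, 24 mice), with a dashed line at equal shares. A09 (11.1%) and A24 (10.7%) are the tallest bars of their panels, and A01 (7.23%) is close to A06 (7.53%).

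Leaving these arrays out moved the balance between the durations in opposite ways. The median log2 variance ratio went from -0.14 to -0.11 without A01, to -0.06 without A09, to -0.27 without A24 and to -0.15 without all 3. Probe sets with a variance over 4-fold larger at 2-d dropped from 405 to 191 without A09 and to 178 without all 3, but rose to 571 without A24. Those over 4-fold larger at 4-wk went from 94 to 120, 128 and 83. Of the 11 called probe sets, 8 were also called without the 3 arrays, among 9 calls in all. The 3 lost were those of Lcn2 (adjusted p = 0.0771), Clec14a (0.0528) and Spsb4 (0.145), so that the calls of Fos, Btg2, H3f3b, Zbtb16 and Marco did not need these arrays.

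In some pathways the change was small without A09 and the other 2 arrays. In the 20 endoplasmic reticulum chaperone genes, 17 had the larger variance at 2-d and the median log2 ratio was -0.74, but it was 0.10 without the 3 arrays, and A09 held 46.3% of the squared deviations at 2-d. In the 23 genes of fatty acid synthesis it went from -0.35 to 0.04 (A09, 45.8%), in the 22 CAR and PXR targets from -0.79 to -0.19, and in the 17 genes of cholesterol biosynthesis from -0.77 to -0.25 (A09, 34.4%; A24, 18.4% at 4-wk). A09 thus stood high for the acute phase, the chaperones and sterol synthesis and low for fatty acid synthesis. In the 8 urea cycle genes A01 held 27.7% and A09 16.2% of the squared deviations at 2-d, and the ratio went from -1.80 to -0.90 without the 3 arrays. In the 16 sinusoidal endothelial markers A01 held 23.6% and A09 7.79%, and the ratio went from 0.06 to 0.81. The part of A01 alone in these lists was not tested. What set these mice apart was not tested.

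**Figure D5:**
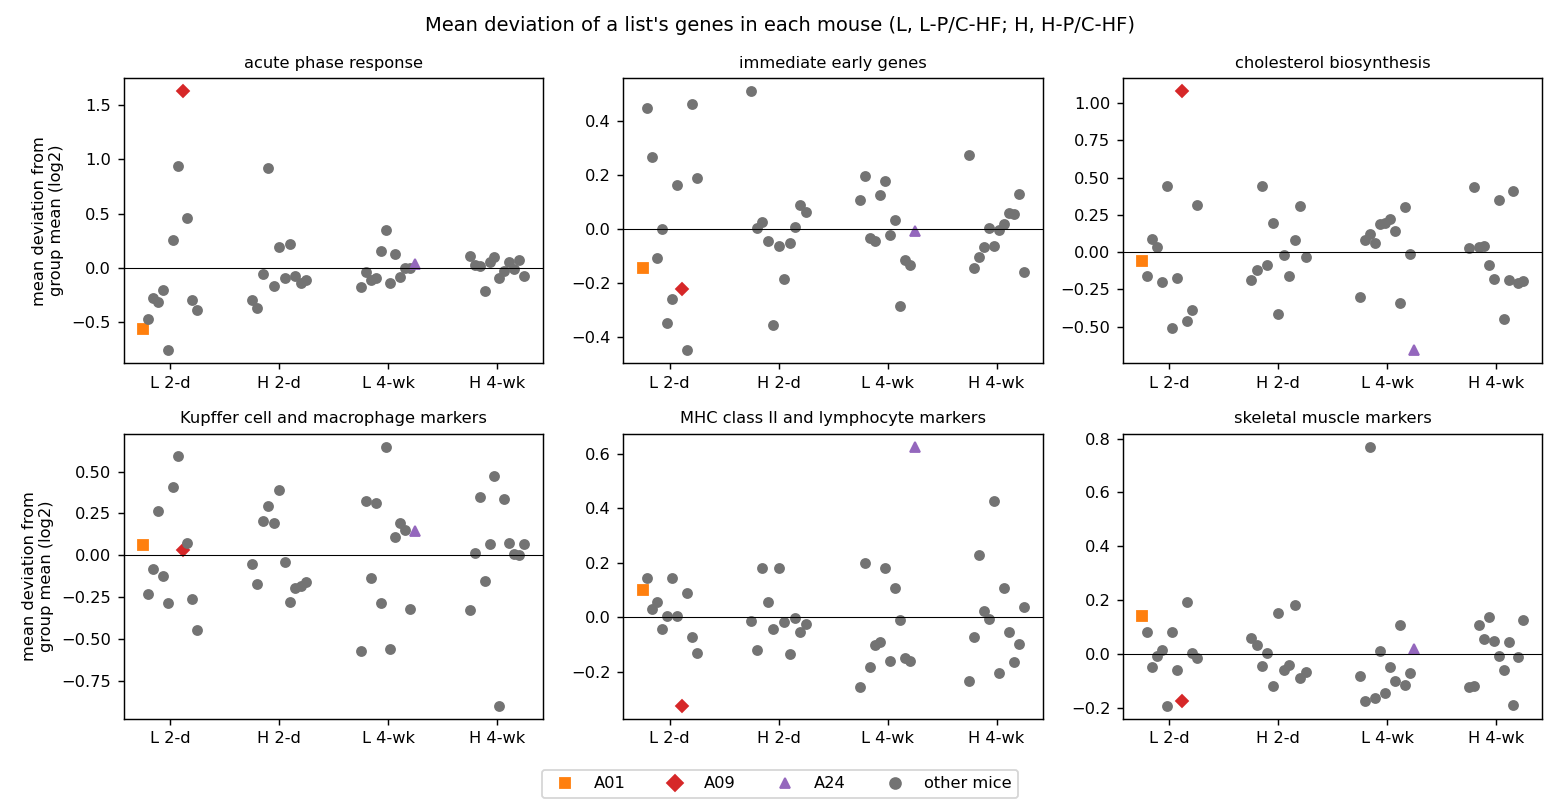
Mean deviation from the group mean (log2) over the genes of 6 lists in each mouse, by group, with A01, A09 and A24 marked. A09 lies highest for the acute phase response (1.63) and cholesterol biosynthesis (1.08), A24 highest for MHC class II and lymphocyte markers (0.62), and none of the 3 is extreme for Kupffer cell markers.

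Within the diets, the durations were also compared separately. In L-P/C-HF mice 10 probe sets passed the adjusted test by limma (0.0222% of those tested), 4 more variable and 6 less variable at 4-wk. The dimmer probe set of Mt1, Aldh4a1, an enzyme of proline breakdown (SDs over both diets 0.31 and 0.15), and a dim probe set of Cdadc1 were called there and not over both diets. That count was unsteady, from 3 to 16 when single arrays were left out. In H-P/C-HF mice 0 of 45037 (0%) passed by limma, with 1504 at an unadjusted p under 0.05 and a lowest adjusted p of 0.229. Without B45, 2 passed. The difference between the diets in the change of spread was itself tested and 0 (0%) passed by limma, with 2190 at an unadjusted p under 0.05 and a lowest adjusted p of 0.959. A call in L-P/C-HF mice and not in H-P/C-HF mice is therefore no evidence that the diets differed in it. The number of arrays, 11 or 12 in a group, limits the precision of every variance given here.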

How the data were processed

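Liver RNA of 48 mice was hybridised to 1-colour arrays, and the deposited log2 expression values, which the authors normalized with RMA, were used as given, with no background or depth information of their own. Control probe sets (64 of 45101) were left out. Of those kept, 34945 carried 1 gene symbol, 932 several and 9160 none, and a gene was represented by its brightest probe set with 1 symbol. Absolute deviations from the group mean, scaled by the root of n/(n-1), were fitted for the 4 groups with limma 3.58.1 (R 4.3.3, empirical Bayes with trend), two-sided, with Benjamini-Hochberg adjustment at 0.05 over all probe sets. Single values were tested with 100000 permutations in R. Correlations were tested with 100000 permutations in numpy 2.4.6, with ranks from scipy 1.17.1. The test was tested on simulated data.

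Each mouse is a separate sample. The members and lists were chosen with earlier results of these data known. Named genes were the 10 with the largest SD at each time, the 10 with the smallest p in each direction, up to 5 for the diet difference, up to 4 members of each list, called genes, genes of pairs and the 8 leading genes of each covarying set. Alternatives covered the centre of the deviations, the test, the variance model, normalization, a filter on low levels, the RNA signal, the replicate number and each array.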

Additional observations from a re-analysis of the deposited data

Results flagged for a closer look

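Array B25 (H-P/C-HF, 2-d), which was left out of all comparisons, differed from its group mates by a median absolute difference of 0.243 log2 units, more than any array that was used, of which A24 was the farthest at 0.236. Of 302 named genes, B25 lay above all 11 group mates in 27 and below all of them in 102. Btn1a1 was at 11.32 in B25, above all 11 group mates.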

How the results depend on the processing

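The 11 calls over both diets became 3 with deviations from the group median, 44 with log2 squared deviations (of which 11 were shared) and 196 with an F test of the variance ratio (36 wider and 160 narrower, 9 shared), and ranged from 9 to 20 when single arrays were left out. The highest counts were without A03 (20), A05 (17) and A11 (17). The 10 calls in L-P/C-HF mice became 2 with group medians, 4 with B25 included, 6 with arrays centred on their median and 3 with the replicate number as a block, and ranged from 3 to 16 over the left-out arrays: 16 without A10, and 3 without A18, A22, A23, B28, B30, B31, B33, B34, B37, B39, B43 or B44, 4 without A20, 5 without A06, A17, A19 or A24, and 6 without A07, A08, B32 or B46. The count in H-P/C-HF mice was 0 under all settings run and 2 without B45. The diet difference had 0 calls except 1 with median centring, Cdadc1 (adjusted p = 0.0482, limma, on a dim probe set at a level of 4.29). The cause of these changes was not tested. Of 44 results recomputed under other settings, 36 stayed within 1.5 times the count or, for the deviation per mouse, on the same side of the test, 5 counts were lower and 3 higher, and none reversed. For named genes, 60 values were recomputed with B25 included, without A01, A09 and A24, or with cyclic loess. Of these, 59 kept their direction and their side of the threshold, and Lcn2 without A01, A09 and A24 did not. Most of these genes had not passed in the main fit, so for them staying above the threshold counted as kept. Group medians and the F test were not part of this count, which is therefore no measure of how stable the calls were.

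Same-numbered mice did not deviate together on average (69 pairs, mean r -0.0194, range -0.618 to 0.601, 22 over 0.1, against 0.00207 for other pairs). This mean gives no sign that the numbers pair the mice, but it cannot exclude it. With the replicate block there were 9 calls over both diets, 3 in L-P/C-HF mice, 0 in H-P/C-HF mice and 0 for the diet difference. Variances from 11 or 12 mice a group are imprecise.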
